A study of Mus musculus with 18 samples.

Results

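mmu-miR-466a-3p, mmu-miR-466p-3p and mmu-miR-467a-5p are 3 mature microRNAs (miRNAs) from a large array of miRNA hairpins in an intron of the mouse gene Sfmbt2, and their chimeric reads in thymocytes are described here. The members were taken by name, as reads whose miRNA label was one of these 3 in the 6 Ago2 immunoprecipitation libraries, and the names had been chosen by their higher share of reads in miR-181-knockout than in wild-type libraries. They are 3 of the 374 miRNA names of the series. They held 1933 reads, with 817 reads for mmu-miR-466a-3p, 450 for mmu-miR-466p-3p and 666 for mmu-miR-467a-5p (written below without the prefix), out of 337802 reads not assigned to a miR-181 name and 411434 reads in all. By read number they ranked at places 40, 50 and 43 of the 362 names outside miR-181.

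The assay was miR-eCLIP, in which UV light of 254 nm fixes RNA onto the miRNA-loaded protein Argonaute 2 (Ago2), and ligation joins a miRNA to the RNA it was paired with, so that a chimeric read names both. Thymocytes came from mice of 6 weeks kept under specific-pathogen-free conditions. Wild-type mice (WT) were C57BL/6, and knockout mice (KO) were B6.Mirc14tm1.1Ankr, which lack the miR-181a/b-1 locus, while other miR-181 loci were not targeted. For each genotype there were 3 Ago2 IP libraries and 3 libraries from an additional pull-down of miR-181-5p after the Ago2 IP, called enriched below, and 6 input libraries were not analysed here. The labels number the samples of a group but do not say that they came from separate animals, so the spread between them may be technical. In bulk thymocytes, a lower number of cells carrying a miRNA and less of it per cell cannot be told apart.

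A miRNA guides Ago2 to transcripts mainly through its seed, bases 2 to 8, and the bound messages are then repressed. The miR-297, miR-466, miR-467 and miR-669 families arose by repeated duplication within the Sfmbt2 intron of rodents, so that many mature forms differ from each other by a base or by a shifted end, and several carry runs of alternating bases that resemble simple repeats. The cluster is known for its activity in trophoblast and early embryonic cells, where it is expressed from the paternal allele. Its host gene encodes a Polycomb-group protein.

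In the RefSeq gene table of GRCm38.p6, Sfmbt2 spanned chr2:10370440-10595253, and 72 hairpin genes of the 4 families lay inside it between 10466663 and 10518279. The hairpin of miR-466a-3p, Mir466, lay at chr2:10507918-10507990, and that of miR-466p-3p, Mir466p, at chr2:10506006-10506094. miR-467a-5p had 10 hairpin genes of nearly the same length between 10476346 and 10503355. The files held 59 names of the 4 families, of which 52 had all their hairpins inside Sfmbt2, 4 had hairpins both inside and outside and 3 had them only outside. Reads were present for 58 of them in the Ago2 IP, and 21 had at least 100 reads.

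Mature sequences of RefSeq (GRCm38.p6) matched 3 of the 59 family names and none of the 3 members. The 3 matched names are shown, with the seed in capitals, as the family names whose sequence the table held; they do not stand for the members. All 3 come from hairpins outside Sfmbt2 and had few reads, 108 for miR-466i-3p, 13 for miR-466j and 17 for miR-466k in the 6 Ago2 IP libraries.
mmu-miR-466i-3p, chr13:17747552-17747573, plus strand: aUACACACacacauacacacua
mmu-miR-466j, chr10:60960802-60960824, plus strand: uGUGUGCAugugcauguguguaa
mmu-miR-466k, chr3:85467396-85467418, plus strand: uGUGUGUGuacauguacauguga
No seed was shared among them. Most of miR-466i-3p alternates A with C, and both other sequences have runs that alternate U with G.

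The 12 libraries held 6832 to 293149 chimeric reads. Outside miR-181 names the Ago2 IP libraries held 29771 to 82309 reads and the enriched libraries 1582 to 5282, so that 3 reads correspond to 0.00364 to 0.0101% of an Ago2 IP library and to 0.0568 to 0.19% of an enriched one. The most abundant name outside miR-181, miR-142a-3p, took 40.1% ± 0.504 (SD, n = 3) of these reads in WT and 40.1% ± 1.03 in KO, which bears on shares of the same total. All 8 thymocyte marker genes, among them Cd4, Cd8a and Rag1, had reads in their spans, summing to 1.1 to 1.17% of reads in WT and 0.981 to 1.05% in KO libraries. Among markers of other cell types, the defining epithelial genes Foxn1, Epcam, Krt5 and Krt8 were at 0, B cell genes reached at most 0.00243%, myeloid genes 0.0039%, erythroid genes 0.0168%, and mesenchymal genes 0.00121%. The myeloid miRNA miR-223-3p took more than the myeloid genes, 0.0105 to 0.0336% in WT and 0.00974 to 0.0183% in KO. The erythroid miRNA markers reached at most 0.0105% and the mesenchymal ones 0.00419%. The miRNA markers of epithelium, mostly miR-200c-3p, took 0.0419 to 0.0605% in WT and 0.0267 to 0.0409% in KO. The endothelial gene Pecam1 took 0.0294 to 0.0369% in WT and 0.0383 to 0.0465% in KO, with Cdh5 at 0, while the endothelial miRNA miR-126a-3p took 0.00336 to 0.0085% in WT and 0.00333 to 0.00974% in KO. The thymocyte genes, the epithelial miRNAs and Pecam1 did not overlap between the genotypes, and their part in the shares below was not tested.

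Reads of miR-466p-3p were almost never found apart from reads of other miR-466 names. Each line of the deposited files gives 1 position and 1 miRNA name. On the plus strand, 223 of 229 miR-466p-3p lines had a line named miR-466a-3p or miR-466e-3p in the same library at the position 1 nt higher. On the minus strand, 202 of 221 had such a line at the identical position. The same held for miR-466b-3p and miR-466c-3p: over the 3 names, 584 of 599 plus-strand lines had their partner exactly 1 nt higher and 565 of 617 minus-strand lines had it at the same position, and 2 more plus-strand lines had it within 1 nt, which makes 1151 of 1216 lines (94.7%). The partner carried the name miR-466a-3p in 44.8% of cases and miR-466e-3p in the rest.

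Seen from the other side, 505 of 817 miR-466a-3p lines (61.8%) and 649 of 1086 miR-466e-3p lines (59.8%) had a line of miR-466b-3p, c-3p or p-3p within 1 nt in the same library. Among the 101 names with at least 100 reads, these 5 names alone showed such overlap: 95.1% of miR-466p-3p and 63.3% of miR-466a-3p lines had a line of any other name within 1 nt, while the other 96 names had a median of 3.72% and at most 15.9%, the value of miR-503-5p. miR-467a-5p lay in that range with 4.05%. In all, the 3119 lines of the 5 names occupied 1938 places when lines within 1 nt in a library were counted as 1, or 1.61 lines per place. The files carry no read identifiers, so whether 2 such lines come from 1 read was not tested. The values of miR-466p-3p below are therefore not independent of those of miR-466a-3p and miR-466e-3p.

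**Figure D1:**
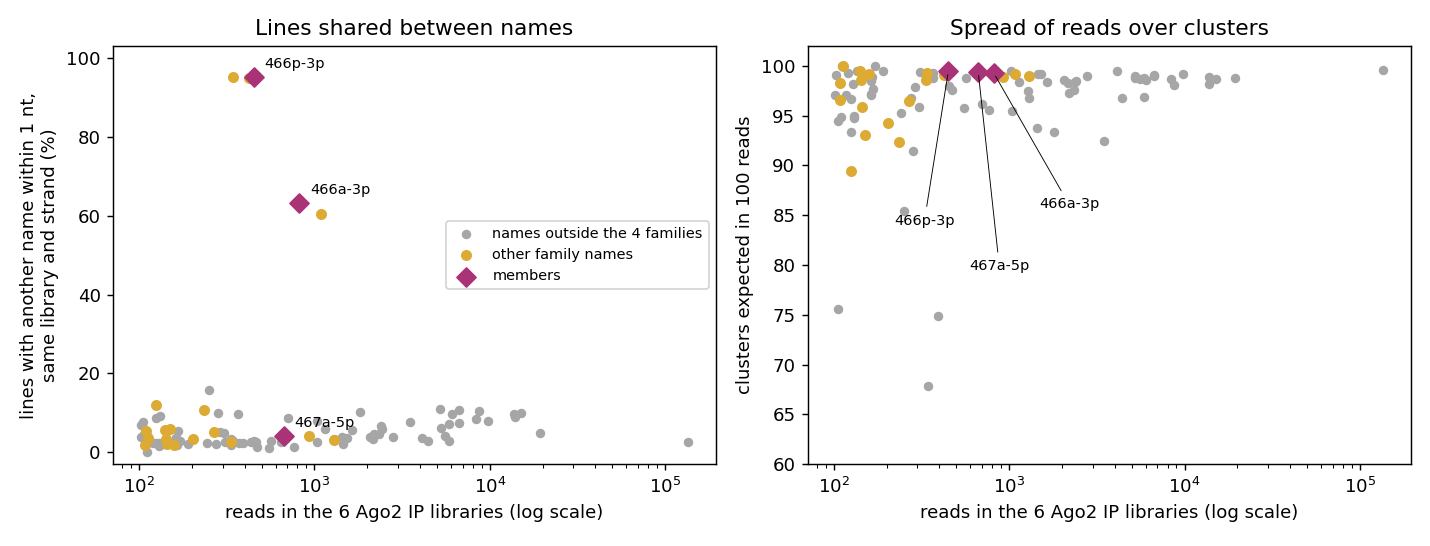
Left, the percentage of a name's lines with a line of another name within 1 nt in the same library and strand; right, the number of clusters (positions at most 20 nt apart) expected in 100 reads of a name; both against reads in the 6 Ago2 IP libraries on a log axis, for 101 names. On the left miR-466p-3p (95.1%) and miR-466a-3p (63.3%) stand with 3 other miR-466 names above all others, while miR-467a-5p (4.05%) does not; on the right all 3 members lie near 99 clusters.

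In the Ago2 IP all 3 members took a larger share of non-181 reads in KO than in WT, which is how they were chosen, so the values are a description with no test. Of the 118 names with enough reads for a fit, 15.3% were higher in KO without overlap of the groups, and edgeR's quasi-likelihood test called 4.24% higher and 0.847% lower (5.08% in either direction) at an adjusted p of 0.05. A further 16.1% were lower in KO without overlap. The split of higher and lower calls, 5 and 1, was 5 and 0 with plain library sizes, 5 and 5 with DESeq2, 8 and 11 without a filter, 4 and 6 with miR-181 names kept and 10 and 9 with the replicate number as a block. miR-466a-3p had 170, 93 and 60 reads in the WT libraries, or 0.207, 0.195 and 0.202% of non-181 reads, and 169, 183 and 142 reads in the KO libraries, or 0.282, 0.274 and 0.277%. The libraries of a genotype lay close together, and every KO library was above every WT library. The mean rose from 0.201% ± 0.0058 to 0.278% ± 0.00379 (SD, n = 3 each), a ratio of 1.38. Counting error alone was wider than this spread, with a Wilson 95% interval of 0.157 to 0.259% in the shallowest WT library and of 0.235 to 0.326% in the shallowest KO library.

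miR-466p-3p had 84, 49 and 28 reads in WT, at 0.102, 0.103 and 0.0941%, and 92, 97 and 100 reads in KO, at 0.153, 0.145 and 0.195%. KO library 3 was the highest, and the groups did not overlap. The means were 0.0996% ± 0.00483 and 0.165% ± 0.0265 (n = 3 each), a ratio of 1.65. miR-467a-5p, the one member that is a 5p arm, had 118, 85 and 48 reads in WT, at 0.143, 0.178 and 0.161%, and 121, 148 and 146 reads in KO, at 0.202, 0.222 and 0.284%. KO library 3 was again the highest, and the lowest KO library was above the highest WT library by a small margin. The means were 0.161% ± 0.0174 and 0.236% ± 0.0431 (n = 3 each), a ratio of 1.47.

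Summed over the names with coinciding lines, the ratio was smaller than for the chosen members alone. miR-466a-3p and miR-466e-3p together took 0.484, 0.488 and 0.514% in WT and 0.629, 0.592 and 0.676% in KO, a ratio of means of 1.28. miR-466b-3p, c-3p and p-3p together took 0.327, 0.291 and 0.292% in WT and 0.42, 0.367 and 0.436% in KO, a ratio of 1.34 against 1.65 for miR-466p-3p alone. With lines of the 5 names within 1 nt counted as 1 place, the share was 0.509% ± 0.0151 in WT and 0.644% ± 0.0413 in KO, a ratio of 1.27. The KO shares lay above the WT shares without overlap on each of these counts. Of the 118 single names with enough reads, 15.3% were higher and 16.1% lower in KO without overlap. Each count contains a member chosen as higher in KO, so these ratios and the lack of overlap are descriptions too. The names in the sums that are not members had lower ratios than the sums.

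The part of each sum that carried a member's name follows in part from the choice of the members. Within the sum of b, c and p, the name miR-466p-3p took 31.2, 35.3 and 32.2% of lines in WT and 36.5, 39.6 and 44.6% in KO, without overlap. Its counterparts miR-466b-3p and miR-466c-3p had ratios of 1.21 and 1.18 between the genotypes, and their groups overlapped. Within the sum of a and e, miR-466a-3p took 42.7, 39.9 and 39.2% in WT and 44.8, 46.3 and 40.9% in KO, where the groups overlapped, and miR-466e-3p had a ratio of 1.20.

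**Figure D2:**
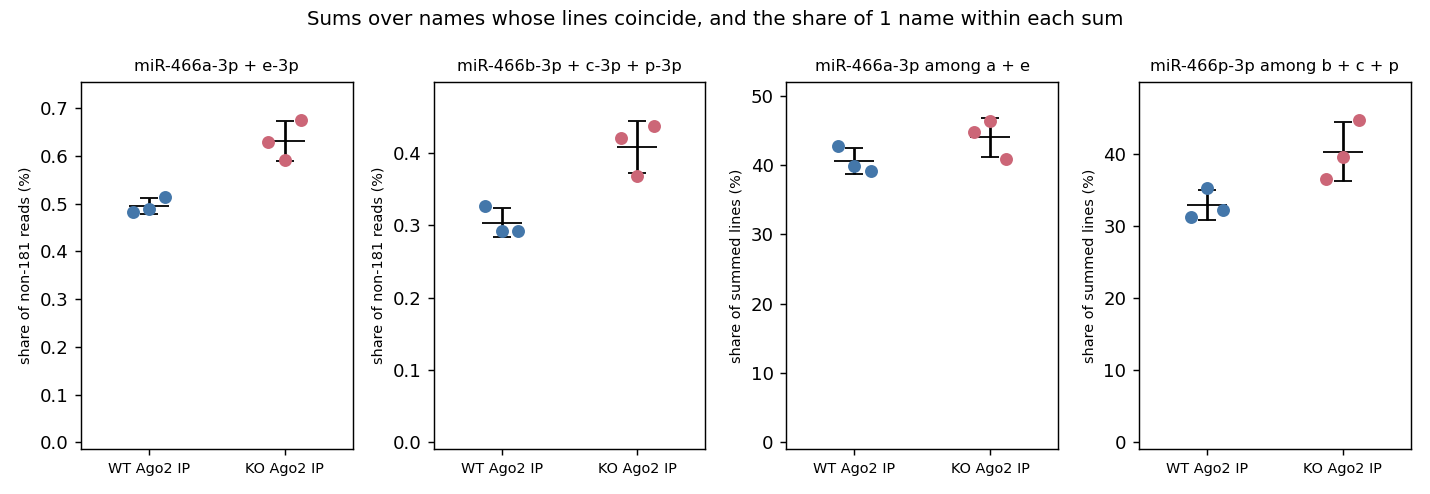
Shares of non-181 reads (%) summed over miR-466a-3p and e-3p and over miR-466b-3p, c-3p and p-3p, and the share (%) of each sum that carries 1 member's name, in the 6 Ago2 IP libraries; points are libraries, and bars are the mean and SD of 3. The ratios of KO to WT means are 1.28 and 1.34 for the sums; each sum holds a member chosen as higher in KO in these libraries.

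The other names of the 4 families tended the same way. Of the 20 other family names with enough reads, 18 had a positive log2 fold change in KO, against 60 of all 118 names and 39 of the 95 outside the families. The median was 0.32 for the 20, against 0.016 over all 118 names and -0.037 over the 95 names outside the families. None of the 20 passed edgeR's quasi-likelihood test in either direction (5 had an unadjusted p under 0.05, and DESeq2 called 0 of the 6 to which it gave an adjusted p). The groups did not overlap for 5 of the 20, all higher in KO. Over all 118 names, 18 (15.3%) were higher and 19 (16.1%) lower without overlap. Lines of miR-466b-3p, miR-466c-3p and miR-466e-3p, which are among the 20, coincide in part with lines of the members chosen as higher in KO. miR-466e-3p was among the 5 without overlap. The names are thus not separate measurements, and for these miR-466 names the direction is not independent of the choice. miR-669f-3p, with 203 reads, had means of 0.0473% in WT and 0.0717% in KO, and miR-669o-3p, the family name with most reads, had 0.332% and 0.444%. Their log2 fold changes in edgeR's quasi-likelihood fit were 0.59 (SE 0.187, adjusted p = 0.0713) and 0.40 (SE 0.136, adjusted p = 0.0767).

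Profiles over the 6 Ago2 IP libraries were also compared among 90 names with at least 10 reads in each, by the root mean square difference of centred log2 shares. These are the shares by which the members were chosen, so names higher in KO lie near each other and the distances are a description. The nearest to miR-466p-3p was miR-467a-5p (0.145, against a median of 0.396 over all names), followed by miR-466a-3p (0.187), miR-669f-3p (0.197), miR-669o-3p (0.202) and miR-503-5p (0.215). Nearest to miR-467a-5p after miR-466p-3p were miR-669o-3p (0.174), miR-467d-3p (0.181), miR-466e-3p (0.184) and miR-669f-3p (0.187). miR-466a-3p instead lay closest to names outside the families, miR-191-5p (0.0765), miR-425-5p (0.107), let-7b-5p (0.127) and miR-103-3p (0.139), with miR-669f-3p at 0.144.

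In RefSeq the hairpins of the locus deleted in KO, Mir181a-1 and Mir181b-1, lie at chr1:137966455-137966541 and chr1:137966639-137966718. The nearby span of the long non-coding gene Gm4258, at chr1:137898464-137963020, ends short of them, and there all non-181 names had 468 reads in WT and 1158 in KO. Of the members' reads, 2 in WT and 11 in KO fell there. Without the reads of this span, the log2 differences between KO and WT moved by less than the spread between libraries for each member. The members' own host gene held almost none of their reads: 1 miR-467a-5p read and no read of the others fell in the Sfmbt2 span, and none fell between its first and last hairpin.

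The enriched libraries, which took no part in the choice of the members, held few of their reads, and their mean shares there were lower in KO. No member passed the read filter there, and none of the 35 names that did belong to the 4 families, of which edgeR's quasi-likelihood test called 2.86% lower in KO and none higher (6 names at an unadjusted p under 0.05, 0 called by DESeq2). Without overlap of the groups, 17.1% of the 35 were higher in KO and 11.4% lower. miR-466a-3p had 5, 2 and 5 reads in WT, at 0.139, 0.0769 and 0.316%, and 4, 5 and 2 reads in KO, at 0.111, 0.0947 and 0.107%. miR-466p-3p had 4, 2 and 2 reads in WT and 3, 3 and 0 in KO, where 0 of 1870 reads allows a share of up to 0.16%. miR-467a-5p had 4, 6 and 4 reads in WT, at 0.111, 0.231 and 0.253%, and 4, 7 and 2 in KO, at 0.111, 0.133 and 0.107%.

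Pooled over libraries, KO over WT was 0.663 (exact 95% counting interval 0.265 to 1.64) for miR-466a-3p, 0.542 (0.155 to 1.78) for miR-466p-3p and 0.672 (0.291 to 1.54) for miR-467a-5p. Each interval includes 1 and also the same name's ratio of means in the Ago2 IP, 1.38, 1.65 and 1.47. A two-sided exact permutation test over 3 against 3 libraries gave p = 0.5, 0.2 and 0.2 in that order, where the smallest p it can give is 0.1. Summed over coinciding names, the mean share was 0.332% ± 0.128 in WT and 0.346% ± 0.115 in KO for a and e, and 0.17% ± 0.0181 and 0.182% ± 0.108 for b, c and p (SD, n = 3 each). The lower values of the 2 miR-466 members in KO were thus not present in the sums.

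**Figure D3:**
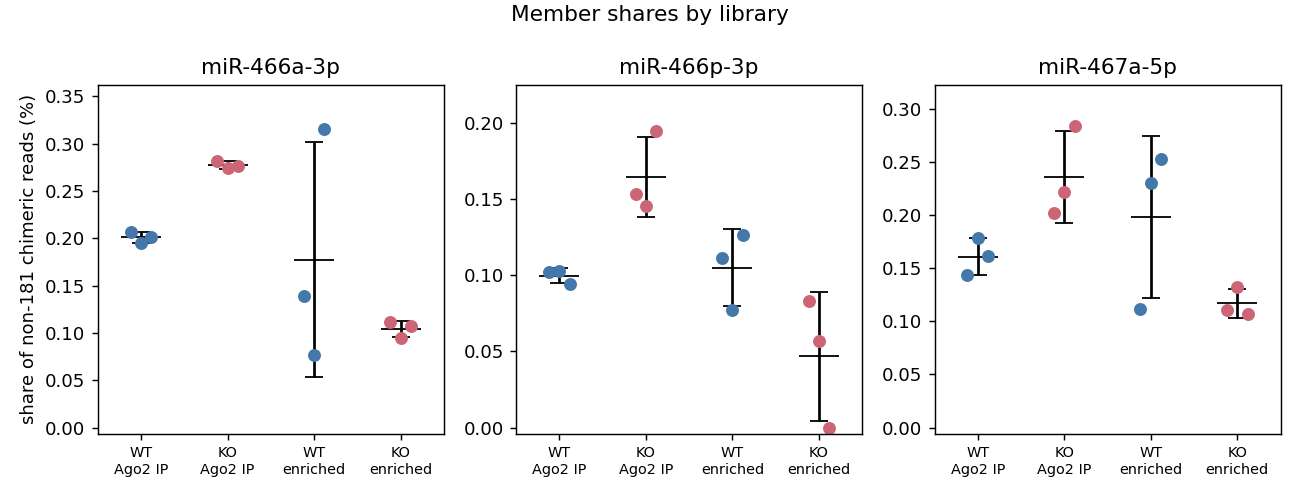
Share of non-181 chimeric reads (%) of each member in the 12 libraries, by genotype, for the Ago2 IP and for the miR-181-enriched libraries; points are libraries, and bars are the mean and SD of 3. In the Ago2 IP every KO point lies above the WT points; in the enriched libraries the groups overlap for miR-466a-3p, miR-466p-3p and miR-467a-5p, on 2 to 7 reads per point or, in 1 KO library, 0.

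Against the Ago2 IP of the same genotype, the pooled share in the enriched libraries was 0.763 (0.39 to 1.35), 1.02 (0.433 to 2.06) and 1.15 (0.618 to 1.96) times as large in WT for miR-466a-3p, miR-466p-3p and miR-467a-5p. In KO it was 0.369 (0.183 to 0.666), 0.344 (0.125 to 0.757) and 0.519 (0.274 to 0.897) times as large. Both sets of ratios are taken against Ago2 IP libraries by which the members were chosen, as high in KO relative to WT. Nothing is therefore read from the size of the ratios in either genotype or from the difference between genotypes. In KO, edgeR's quasi-likelihood test called 5.0% of 100 names higher and 7.0% lower in the enriched libraries. Among the 19 other family names tested it called 1 lower, miR-669o-3p, and none higher (8 had an unadjusted p under 0.05, and DESeq2 called 3). In WT it called 5.56% of 72 names higher and 2.78% lower, and none of 8 other family names (3 had an unadjusted p under 0.05, and DESeq2 called 0). Of the members' enriched reads, 1 of 23 for miR-466a-3p, none of 14 for miR-466p-3p and 4 of 27 for miR-467a-5p lay within 20 nt of an Ago2 IP read of the same name.

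The reads of the members were spread over many places and not concentrated on a few. Joining positions of a strand at most 20 nt apart, the 817 reads of miR-466a-3p formed 775 clusters, of which 739 held 1 read and the largest 4. The 450 reads of miR-466p-3p formed 440 clusters and the 666 of miR-467a-5p formed 643, each with at most 3 reads. The top 10 clusters held 3.18, 4.44 and 3.60% of the reads of miR-466a-3p, miR-466p-3p and miR-467a-5p. In the 9 names outside the families with 400 to 900 reads, the median was 6.62%, with a range from 3.41 to 8.97%.

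Scaled to 100 reads, the members would fall into 99.3, 99.5 and 99.4 clusters, and ranked at places 17, 8 and 11 of 101 names from the most to the least spread. The median over all 101 names was 98.5 clusters and the lowest 67.9, that of miR-18b-5p, whose largest cluster held 32.3% of its reads. Lines that repeat the position of another line of the same name and library made up 0.49, 0.222 and 0.601% of member lines, below the median of 1.39% over the 101 names. Clusters present in more than 2 libraries numbered 3 for miR-466a-3p, none for miR-466p-3p and 1 for miR-467a-5p.

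For miR-466a-3p, 4 reads from 3 libraries fell at chr11:34337308-34337327 on the minus strand, where Dock2, a Rac activator of lymphocyte migration, overlaps Insyn2b, and 4 reads from 3 libraries at chr16:92824001-92824023, minus strand, in Runx1, a transcription factor required for T cell development. Around them the 4 families had 8 and 16 reads. Its clusters of 3 reads were in Ramp1 at chr1:91197672-91197681, and at chr5:65928836-65928857 on the minus strand, in no gene span, with 6 family reads. The largest cluster of miR-466p-3p, at chr11:117728455-117728459 in Tnrc6c, an Argonaute-binding silencing factor, had 3 reads, all in KO library 2. The largest of miR-467a-5p, at chrX:36883646-36883662 in Ube2a, a ubiquitin-conjugating enzyme, had 1 read in each WT library and none in KO. Its other clusters of 3 reads were in Rnf145, Kbtbd2 and Arpp21.

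By protein-coding gene span, reads of miR-466a-3p fell into 552 genes, those of miR-466p-3p into 340 and those of miR-467a-5p into 517, with 1 read each in 441, 294 and 440 of them. Runx1 led for both miR-466 members, with 26 miR-466a-3p reads in 20 clusters and 10 miR-466p-3p reads in 10 clusters, all on the strand of the gene. By library, the miR-466a-3p reads in Runx1 numbered 6, 3 and 2 in WT and 3, 9 and 3 in KO, so that they were present in all 6 and the groups overlapped. Runx1 had 138 reads of the 4 families, and ranked at place 17 by reads of all other names, with 734. The densest stretch, chr16:92823907-92824471 on the minus strand (565 nt, joining reads at most 100 nt apart), held 62 family reads from 6 libraries, of which 14 were miR-466a-3p, 5 miR-466p-3p and none miR-467a-5p, beside 6 reads of names outside the families. This stretch was singled out after its values were seen.

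Ikzf1, which encodes the lymphoid transcription factor Ikaros, was next for both, with 10 and 6 reads. Further genes with 3 or more reads of miR-466a-3p included Dock2 (8), Arpp21 (6), the T cell receptor signalling gene Themis (5), Ramp1 (5), Scml4 (5), Insyn2b (5), Aff3 (4) and the cyclin gene Ccnd3 (4). A read in overlapping spans was counted in each, so reads of Insyn2b may be the same as reads of Dock2. For miR-466p-3p such genes included the adaptor gene Nck2 (5), the CD45 gene Ptprc (5), Ccnd3 (4), the Notch coactivator gene Maml2 (4), and Aff3, Dock2, Nrip1 and Nsd1 (3 each). Counts in these genes come from lines that in part coincide between the miR-466 names.

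miR-467a-5p had another order. Bcl11b, a transcription factor of T cell commitment, led with 7 reads in 7 clusters, at 3, 1 and 0 reads in WT and 0, 1 and 2 in KO. Arpp21 followed with 6, Tnrc6a, which encodes an Argonaute-binding silencing factor, with 5, and Casp2, Kbtbd2 and Tnrc6b with 4 each. Bach2, the cell cycle inhibitor gene Cdkn1b, Dock2 and Foxp1 had 3 each. Arpp21 ranked at place 3 and Bcl11b at place 14 by reads of all other names, whereas Casp2 ranked at place 1200, with 63 reads.

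Of the gene spans with reads, miR-466a-3p and miR-466p-3p shared 200, which is 36.2% of the former's and 58.8% of the latter's. miR-467a-5p shared 100 with miR-466a-3p, 19.3% of its own spans and 18.1% of the other's, and 65 with miR-466p-3p, 12.6% and 19.1%. At the level of sites, 71.0% of miR-466a-3p and 98.4% of miR-466p-3p reads lay within 20 nt of a read of another family name in any library. Only 1.80% of miR-467a-5p reads did, below the median of 2.16% for the 80 names outside the families. Within the same library, 443 of 450 miR-466p-3p lines (98.4%) already had a miR-466a-3p or miR-466e-3p line within 20 nt. For miR-466a-3p, 531 of 817 lines (65.0%) had a line of miR-466b-3p, c-3p or p-3p there. The spans and sites shared between miR-466 names thus come in large part from coinciding lines, which may be 1 read under 2 names.

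Part of the miR-467a-5p reads lay near reads of abundant names outside the cluster. Of 666 reads, 121 (18.2%) were within 20 nt of a read of miR-142a-3p, 47 (7.06%) of miR-17-5p and 41 (6.16%) of miR-20a-5p. The share near miR-142a-3p was not particular to miR-467a-5p. It was 16.1% for miR-30c-5p, 19.1% for miR-16-5p and 21.2% for let-7a-5p, and ranged from 2.54% (miR-706) to 35.1% (miR-503-5p). The mature sequences of miR-142a-3p, miR-17-5p and miR-20a-5p in RefSeq (GRCm38.p6), with seeds in capitals, are shown because miR-17-5p and miR-20a-5p share a seed.
mmu-miR-142a-3p, chr11:87756903-87756925, plus strand: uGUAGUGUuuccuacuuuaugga
mmu-miR-17-5p, chr14:115043684-115043706, plus strand: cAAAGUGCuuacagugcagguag
mmu-miR-20a-5p, chr14:115044183-115044205, plus strand: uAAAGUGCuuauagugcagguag
Over the 6 names that have this seed, 84 reads (12.6%) of miR-467a-5p lay within 20 nt, which ranked it at place 15 of 96 names. The median over 75 names outside the families was 8.06%, with a range from 0 to 23.1%, and miR-466a-3p and miR-466p-3p had 2.08 and 2.22%. Among the other miR-467 names, miR-467d-5p and miR-467c-5p had 17.7% each, miR-467e-5p 14.5% and miR-467d-3p 3.88%. The share was thus not particular to miR-467a-5p. These shares depend on how many reads the other name has and on how many reads a gene has, and no test was made.

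The share of reads inside protein-coding gene spans did not differ detectably between the members and other names. Of the 101 names with at least 100 reads, 13.9% were lower and 15.8% higher in all 6 libraries than names outside the families. The members were instead compared with all other non-181 names. The share was 91.2% ± 2.47 for miR-466a-3p, 92.1% ± 3.76 for miR-466p-3p and 92.0% ± 1.66 for miR-467a-5p (SD, n = 6 libraries), against 91.1% for all other non-181 names. Two-sided exact sign-flip permutation tests over the 6 libraries gave p = 1, 0.594 and 0.25 in that order. On the strand of the gene lay 98.4, 98.3 and 99.3% of placed reads, against 97.9% for names outside the families.

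Along the gene, the miR-466 members had fewer reads near the 3′ end than other names in every library, while miR-467a-5p did not. Reads were placed where a single protein-coding span with a known strand covered them, 606 of miR-466a-3p, 318 of miR-466p-3p and 495 of miR-467a-5p. In the last 10% of the span, toward the 3′ end, lay 15.3% ± 3.49 of miR-466a-3p reads and 15.8% ± 4.08 of miR-466p-3p reads (SD, n = 6), against 26.1% ± 0.429 for names outside the families. By library miR-466a-3p had 15.4, 20.3 and 12.8% in WT and 11.2, 13.6 and 18.4% in KO, and miR-466p-3p 14.3, 21.6 and 10% in WT and 19.0, 14.1 and 15.6% in KO. Both were lower than the other names in 6 of 6 libraries, by 10.8 and 10.3 percentage points. miR-467a-5p had 27.9% ± 4.36, higher than the other names in 4 of 6 libraries.

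A two-sided exact sign-flip permutation test gave p = 0.03125 for each miR-466 member, the smallest that 6 libraries can give, and p = 0.375 for miR-467a-5p. Adjusted over all 101 names with at least 100 reads, these were 0.0877, 0.0877 and 0.519, so none passed 0.05. Every name at the smallest p had the adjusted value 0.0877. It could have reached 0.05 only if many more names had been at that p, so nothing is concluded from the failure to pass. Of the 101 names, 21.8% were lower in all 6 libraries, among them 6 of the 18 other family names. These were miR-669f-3p, whose share was below the other names by 13.5 points, and miR-669o-3p, miR-466e-3p, miR-466c-3p, miR-466b-3p and miR-669a-3p. Lines of the miR-466 names among them coincide in part with those of the miR-466 members, so these are not separate measurements. A further 13.9% of names were higher in all 6. This measure was chosen after the data were seen. The median distance from a read to the 3′ end of the span was 37.7 kb for miR-466a-3p, 37.6 kb for miR-466p-3p and 19.7 kb for miR-467a-5p, with 16.2 kb as the median of the 80 names outside the families, and the median span was 91.1, 94.6 and 78.0 kb against 69.1 kb. Whether exons or introns were hit was not analysed here, because the table gives only gene spans.

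**Figure D4:**
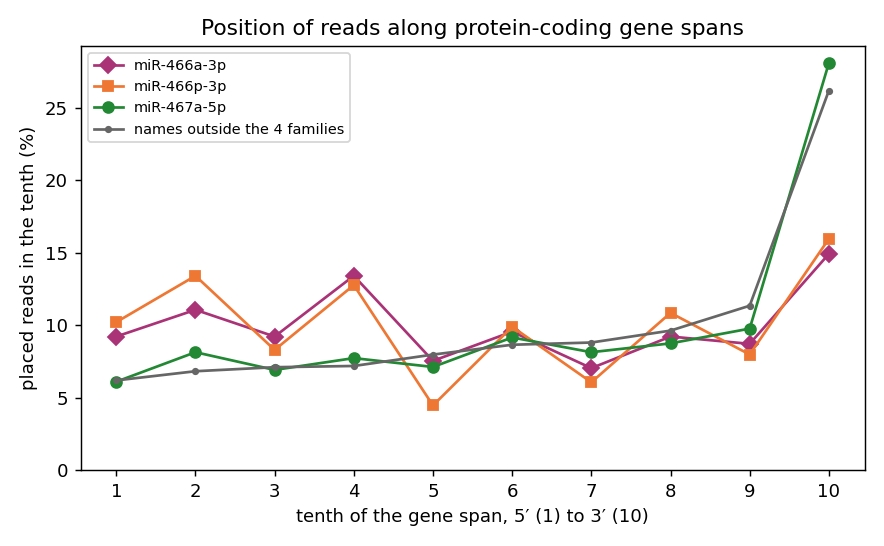
Percentage of placed reads on the gene's strand in each of 10 equal parts of protein-coding gene spans, from the 5′ end (1) to the 3′ end (10), pooled over the 6 Ago2 IP libraries, for each member and for all names outside the 4 families. In the last of them the miR-466 members have 14.9 and 16%, and miR-467a-5p (28.1%) lies near the other names (26.2%).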

How the data were processed

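The deposited files list chimeric reads as 1-nt positions with strand and miRNA name, and each line was taken as 1 read, so the unit is the count of lines per name. Per the submitters' processing notes, the authors used Bowtie2 2.4.5, STAR 2.7.10, UMI-tools 1.1.1, SAMtools 1.11 and bedtools 2.30.0 with builds mm10 and GRCm38.p6, and the sources used here give neither order nor parameters. A read that the authors listed under more than 1 name would enter each name's count. Miscalls between near-identical names cannot be seen in these counts.

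The members and lists were chosen with earlier results of these data known. Counts per name without miR-181 names were compared between groups with edgeR 4.0.16 (TMM, filterByExpr with a minimum count of 10, quasi-likelihood test, Benjamini-Hochberg over all names tested, threshold 0.05), checked on simulated data. DESeq2 1.42.0 was an alternative. Single shares have Wilson 95% intervals, pooled ratios exact ones, and a count of 0 allows 3 reads; all cover counting error only. In the enriched libraries no member passed the filter, so an exact permutation test over libraries was used in place of the planned fit. Gene spans came from RefSeq and gene strands from its promoter table. Named were the members, family names, each member's top 10 clusters and gene spans and its 5 nearest profiles. The other names set beside them follow from a result, after its values were seen. Replicate numbers were not used to pair the libraries in the main fits. The counts of coinciding lines, the sums over names and the position along genes were added after the data were seen.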

Additional observations from a re-analysis of the deposited data

How the results depend on the processing

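Counts of names called by edgeR moved with the settings. Between KO and WT in the Ago2 IP, 6 names were called, against 10 with DESeq2, 19 without a filter, 10 with miR-181 names kept and 0 to 11 when 1 library was left out; the calls fell to 0 without WT library 1, WT library 3 or KO library 3 (27, 31 and 28 names at an unadjusted p under 0.05) and to 1 without WT library 2, and rose to 11 without KO library 2. In the enriched libraries 1 name was called, against 2 with plain library sizes, 0 with DESeq2, 0 without a filter, 0 with identical lines counted once, 3 with miR-181 names kept and 0 to 2 when 1 library was left out, 0 for 4 of the 6 libraries. At an unadjusted p under 0.05 these counts of 0 stood beside 2, 13 and 7 names, and beside 5 or 6 when 1 library was left out. For enriched against Ago2 IP, WT had 6 calls, against 10 with miR-181 names kept and 0 to 8 when 1 library was left out (0 without enriched library 1, 8 at an unadjusted p under 0.05), and KO had 12, against 7 with identical lines counted once, 21 with miR-181 names kept and 4 to 19 when 1 library was left out (4 without enriched library 1, 19 without Ago2 IP library 2). The cause was not tested.

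With the replicate number as a block the calls were 19 between KO and WT in the Ago2 IP, 1 in the enriched libraries, and 6 in WT and 7 in KO for enriched against Ago2 IP. The labels do not say whether libraries of the same number belong together. Between KO and WT in the Ago2 IP, the correlations of deviations between same-numbered libraries were -0.2, 0.0914 and 0.0234. For enriched against Ago2 IP they were 0.261, 0.059 and 0.104 in WT and 0.133, 0.025 and 0.163 in KO. In no comparison did each exceed 0.1. The enriched libraries held few non-181 reads, so these values cannot decide whether the numbers pair the libraries.

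The members' log2 difference between KO and WT in the Ago2 IP (0.47, 0.71 and 0.54) kept its sign under every alternative run. With all chimeric reads as denominator it was 0.98, 1.23 and 1.06, because KO libraries hold few miR-181 reads. With names whose lines coincide summed it was 0.35 for miR-466a-3p and 0.42 for miR-466p-3p, and with places counted once 0.34. Leaving out 1 library gave 0.44 to 0.49, 0.59 to 0.80 and 0.40 to 0.65.

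The difference in the enriched libraries (-0.0731, -0.0582 and -0.0814 percentage points) turned to 0.0277, 0.0123 and 0.0309 with all chimeric reads as denominator, and to 0.0142 and 0.0116 for the summed names. The exact permutation p stayed at 0.1 or above, the smallest possible with 3 libraries a group. Leaving out 1 library gave -0.123 to -0.00379, -0.0765 to -0.0348 and -0.125 to -0.0541.

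On single positions the top 10 held 1.71% of miR-466a-3p and 2.44% of miR-466p-3p reads. Inside protein-coding spans, miR-466a-3p's difference of 0.03 points was -0.445 with identical lines counted once, -0.776 with spans of any gene, and -0.849 to 0.635 when 1 library was left out. In the last 20% of the span miR-467a-5p's difference was -0.826 points, against 1.81 in the last 10%. Sums over names of identical mature sequence were not run, because member sequences were not in the tables used. With at most 7 reads of a member per enriched library, depth limits every statement on the members there.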
